A study of Homo sapiens with 6 samples.

Results

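The CLK, SRPK and DYRK kinases are protein kinases of the CMGC group, the branch of the kinome that also holds the cyclin-dependent kinases and GSK3. The 10 genes CLK1, CLK2, CLK3, CLK4, SRPK1, SRPK2, DYRK1A, DYRK1B, DYRK2 and DYRK3 were taken by name, and every probe set whose only gene symbol in the platform annotation was one of them was included. This gave 29 of the 54675 probe sets of the array. The cells were IMR32, a neuroblastoma line with amplified MYCN, hybridised to 6 arrays that read out gene expression. The DMSO group (3 arrays) received 0.1% DMSO for 24 h, and the teriflunomide group (3 arrays) received 118 µM teriflunomide for 24 h, in both cases from 12 h after seeding. Teriflunomide inhibits dihydroorotate dehydrogenase, an enzyme of pyrimidine synthesis, and whether its wells also held DMSO was not stated. The labels describe the arrays as biological replicates without saying whether the cultures were separate, so the p-values reflect no more than the array-to-array spread, which may be technical.

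CLK kinases are nuclear enzymes that phosphorylate SR proteins, the splicing factors with an arginine- and serine-rich (RS) domain, and so release them from nuclear speckles to act on pre-mRNA. SRPK kinases phosphorylate the same domain mainly in the cytoplasm, which lets the transport receptor TNPO3 carry SR proteins into the nucleus. DYRK kinases activate themselves by phosphorylating a tyrosine of their own activation loop and then act on serine and threonine, with roles in cell cycle exit, NFAT signalling, protein turnover and the dissolution of condensates. CLK1 and CLK4 transcripts are known to be held partly in the nucleus with introns retained.

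After teriflunomide, CLK1, CLK3 and CLK4 rose by 0.86 to 1.21 on the log2 scale, SRPK1 and DYRK2 fell (-0.46 and -0.32), and CLK2, SRPK2, DYRK1A, DYRK1B and DYRK3 did not pass the test. These values are from the brightest probe set of each gene. In bulk RNA, a change in RNA per cell cannot be told apart from a change in the share of cells that express a gene. Each log2 unit doubles the intensity. A feature was called when limma's p-value, adjusted by Benjamini-Hochberg over all features tested, was under 0.05. Over all 11998 genes tested, 58.6% were called, 29.7% as higher and 28.9% as lower, so 5 called members of 10 is a share near that of all genes. Changes of at least log2 1 were rarer. They were called as rises for 5.24% of all genes, and among the members for CLK1 and CLK3. CLK1 lies at that limit and fell under it without DMSO replicate 2 (0.98), teriflunomide replicate 1 (0.97) or teriflunomide replicate 3 (0.99) and with array weights (0.99), which left CLK3 alone. The median change over the 10 members was 0.05, against 0.0015 over all genes.

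Of the 29 probe sets, 20 passed the filter on low values. The other 9 (1 each of CLK3, CLK4, SRPK2, DYRK1B and DYRK3 and 4 of DYRK1A) lay at or near 2.18, the lowest value of the arrays, which is where the background correction places probe sets without measurable signal. Of the 20, 4 were called higher and 5 lower, against 48.8% of the 27290 probe sets tested. For 13 of the 20, the 2 groups held no overlapping arrays, against 60% of all probe sets tested.

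**Figure D1:**
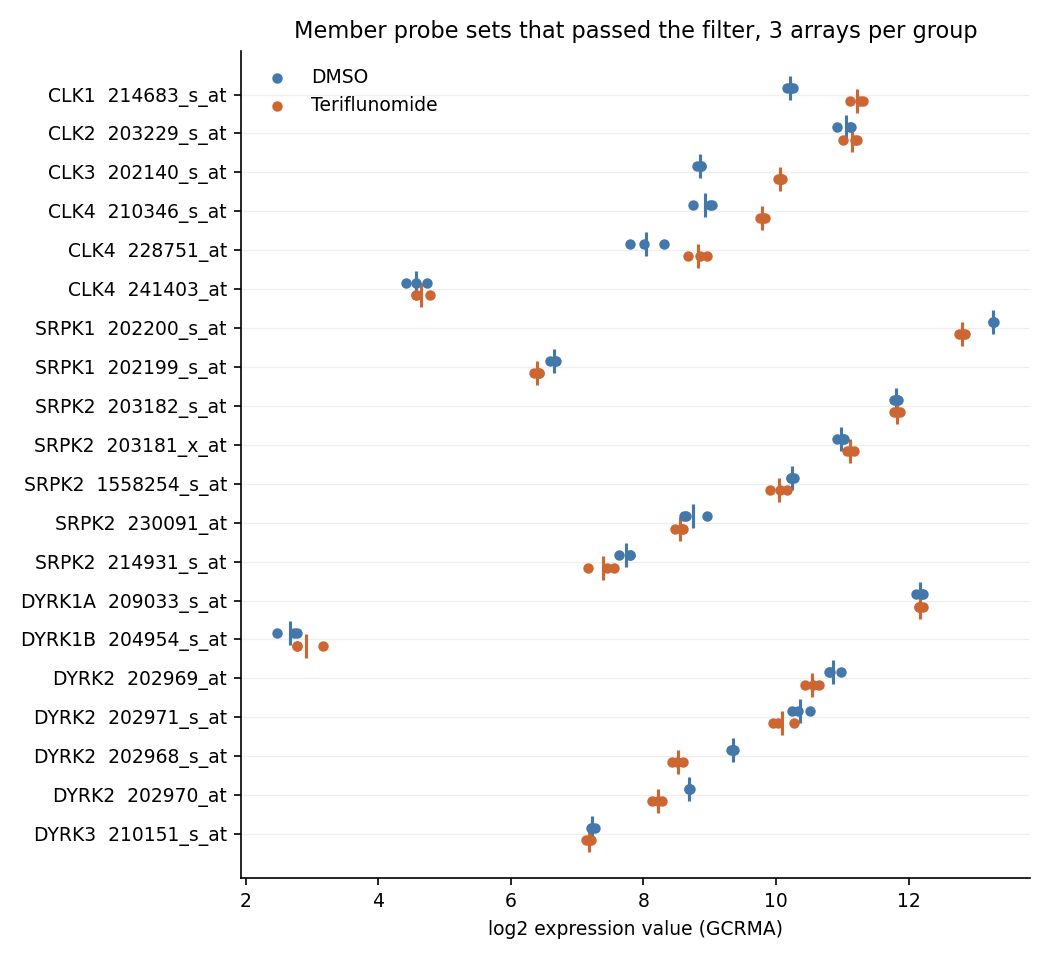
Log2 expression value (horizontal axis) of each of the 20 member probe sets that passed the filter, with 3 DMSO arrays (blue) and 3 teriflunomide arrays (orange) as points and the group mean as a vertical tick. The groups stand apart for CLK1, CLK3, 2 CLK4 probe sets, both SRPK1 probe sets, 4 of the 5 SRPK2 probe sets and 3 of the 4 DYRK2 probe sets, and lie on top of each other for CLK2 and DYRK1A.

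The bases before the RefSeq start of the 3 CLK genes that rose are shown with those of CLK2, which did not pass, so that the promoters of the family can be set side by side. Each is the 250 bases upstream of the furthest upstream start listed for the gene, 5′ to 3′ on the gene's strand, from RefSeq on GRCh38.p14. The positions are CLK1 chr2:200864659-200864908, minus strand; CLK3 chr15:74608122-74608371, plus strand; CLK4 chr5:178627051-178627300, minus strand; CLK2 chr1:155273505-155273754, minus strand. Capitals mark matches, on either strand, to the motifs searched, namely the CCAAT box, spelled as named, the GC box as GGGCGG, the cyclic AMP response element as TGACGTCA, the amino acid response element as TGATGNAAN, the E-box as CACGTG, the core of ETS sites as CCGGAAG and the TATA box as TATAAA. No 2 of these motifs overlap in the windows printed.
CLK1: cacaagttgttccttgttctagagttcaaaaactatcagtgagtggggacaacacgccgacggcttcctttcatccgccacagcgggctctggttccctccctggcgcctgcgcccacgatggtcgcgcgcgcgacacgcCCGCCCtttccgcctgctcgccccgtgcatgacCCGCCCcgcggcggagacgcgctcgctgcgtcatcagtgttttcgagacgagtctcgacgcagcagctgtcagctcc
CLK3: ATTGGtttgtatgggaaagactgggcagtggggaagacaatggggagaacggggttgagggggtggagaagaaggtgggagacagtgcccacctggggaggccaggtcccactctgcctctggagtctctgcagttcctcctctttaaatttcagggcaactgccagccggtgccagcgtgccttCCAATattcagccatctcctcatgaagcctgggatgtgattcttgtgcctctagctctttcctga
CLK4: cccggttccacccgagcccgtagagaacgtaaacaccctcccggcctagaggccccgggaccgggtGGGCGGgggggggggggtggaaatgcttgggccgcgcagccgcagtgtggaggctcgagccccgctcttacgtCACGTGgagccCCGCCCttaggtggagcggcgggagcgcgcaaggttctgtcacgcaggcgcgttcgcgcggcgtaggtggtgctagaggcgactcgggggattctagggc
CLK2: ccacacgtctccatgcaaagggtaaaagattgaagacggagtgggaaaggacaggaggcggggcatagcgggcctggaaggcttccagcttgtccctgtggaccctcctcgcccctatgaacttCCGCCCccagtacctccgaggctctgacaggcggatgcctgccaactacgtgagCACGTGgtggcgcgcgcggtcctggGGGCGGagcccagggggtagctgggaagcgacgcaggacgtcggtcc

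CLK1, CLK4 and CLK2 each held GC boxes, which 42.6% of 34788 promoter windows of the same length held. Those windows cover every start listed for a gene, whereas the printed ones cover only the furthest upstream start. CLK4 and CLK2 held an E-box, found in 6.31% of windows, and CLK3 held CCAAT matches, found in 32.0%. None of the 4 held the cyclic AMP response element or the amino acid response element, which 1.64% and 3.15% of all windows held. No motif of this list was found in the printed windows of all 3 genes that rose. For CLK1 and CLK3, 2 windows each were listed, and only the printed one is covered here. Of the 10 members, 9 had a RefSeq window, and the 5 of them not printed were SRPK1, SRPK2, DYRK1A, DYRK1B and DYRK3. These matches are letters in a window and were not tied to binding in these cells.

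CLK3 had the largest rise of the family. Its probe set 202140_s_at read 8.87, 8.87 and 8.81 on the DMSO arrays and 10.09, 10.02 and 10.07 on the teriflunomide arrays. Every treated array lay more than a log2 unit above every control array. The means were 8.85 ± 0.04 and 10.06 ± 0.03 (log2, SD, n = 3 per group), a change of 1.21 (SE 0.04, limma adjusted p = 4.43e-05) or 2.31-fold. Of all genes tested, 96.5% had a lower log2 fold change. The other CLK3 probe set, 238072_at, lay at 2.18 on every array.

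CLK1, the founding member of the family and a regulator of its own splicing, had a single probe set, 214683_s_at. It read 10.23, 10.16 and 10.26 in DMSO and 11.31, 11.11 and 11.26 with teriflunomide. The groups were far apart compared with their spread, and the change was 1.01 log2 units (SE 0.06, limma adjusted p = 0.000215), or 2.02-fold. The suffix _s_at marks probe sets that can match several transcripts, so the signals of close relatives such as CLK1 and CLK4 may not be fully separate.

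CLK4, the closest relative of CLK1, was measured by 3 probe sets that passed the filter. The brightest, 210346_s_at, read 9.03, 8.75 and 9.01 in DMSO and 9.80, 9.83 and 9.75 with teriflunomide, a log2 fold change of 0.86 (SE 0.08, limma adjusted p = 0.000842). The second, 228751_at, read 8.31, 7.80 and 8.01 in DMSO and 8.96, 8.68 and 8.85 with teriflunomide, a change of 0.79 (SE 0.15, limma adjusted p = 0.00844). Groups did not overlap on either, and DMSO replicate 2 was the lowest on both. The third, 241403_at, was dim, with every array between 4.42 and 4.78, and its change was 0.06 (95% interval -0.20 to 0.33).

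CLK2, a kinase also known from insulin and mTOR signalling in metabolism, did not pass the test. Its probe set 203229_s_at read 11.13, 10.92 and 11.11 in DMSO and 11.19, 11.23 and 11.01 with teriflunomide. The groups overlapped, and the log2 fold change was 0.09 with a 95% interval of -0.13 to 0.31. A rise of the size seen for CLK1, CLK3 or CLK4 lies outside that interval. RefSeq lists the pseudogenes CLK2P1, CLK3P1 and CLK3P2, and whether these probe sets also read them was not tested.

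SRPK1, an SR protein kinase often abundant in tumours, fell on both of its probe sets. The brighter, 202200_s_at, read 13.29, 13.27 and 13.27 in DMSO and 12.77, 12.85 and 12.83 with teriflunomide. That is a log2 fold change of -0.46 (SE 0.03, limma adjusted p = 0.000326), with DMSO 1.38-fold above teriflunomide. The other, 202199_s_at, read 6.59, 6.67 and 6.69 in DMSO and 6.42, 6.43 and 6.35 with teriflunomide, a change of -0.25 (SE 0.04, limma adjusted p = 0.00542). All DMSO arrays lay above all teriflunomide arrays on both probe sets.

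SRPK2, its paralog with high expression in the nervous system, gave no settled direction. None of its 5 tested probe sets was called by limma, against 48.8% of all probe sets tested. Without adjustment, 3 had a limma p under 0.05, which at least those 48.8% also had. The groups did not overlap on 4 of the 5, against 60% of all probe sets tested. The brightest, 203182_s_at, read 11.78, 11.84 and 11.82 in DMSO and 11.87, 11.78 and 11.83 with teriflunomide, a log2 fold change of 0.01 (95% interval -0.09 to 0.11). The probe set 203181_x_at stood at 0.13 and the remaining 3 at -0.19, -0.19 and -0.35, so the sign differs between probe sets. The lowest of these, 214931_s_at, read 7.63, 7.80 and 7.79 in DMSO and 7.45, 7.55 and 7.17 with teriflunomide (limma adjusted p = 0.0523), and teriflunomide replicate 3 was the lowest. When its probe sets were averaged, SRPK2 was called lower at -0.12 (limma adjusted p = 0.0423). RefSeq also lists the pseudogene SRPK2P1, and whether the SRPK2 probe sets read it was not tested.

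DYRK1A, a dosage-sensitive kinase encoded on chromosome 21 that primes assembly of the DREAM repressor complex through LIN52, showed no change beyond the spread. Its probe set 209033_s_at read 12.22, 12.11 and 12.21 in DMSO and 12.15, 12.16 and 12.21 with teriflunomide. The groups overlapped, and the 95% interval of the log2 fold change was -0.11 to 0.10. The other 4 DYRK1A probe sets lay at or near the lowest value of the arrays.

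DYRK1B, a relative of DYRK1A linked to quiescence, was barely above the floor. The probe set that passed the filter, 204954_s_at, read 2.77, 2.73 and 2.47 in DMSO and 2.77, 2.78 and 3.16 with teriflunomide, and the other lay at the floor. Its difference of 0.24 (95% interval -0.11 to 0.60) became 0 with values under log2 5 raised to 5, so these arrays say little about DYRK1B.

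DYRK2, a kinase that phosphorylates p53 after DNA damage, stood lower on all 4 of its probe sets, 3 of which were called. The brightest, 202969_at, read 10.81, 10.98 and 10.80 in DMSO and 10.43, 10.55 and 10.65 with teriflunomide, a log2 fold change of -0.32 (SE 0.08, limma adjusted p = 0.0227). This call was lost without DMSO replicate 2 (-0.26, limma adjusted p = 0.0526), without teriflunomide replicate 1 (-0.26, limma adjusted p = 0.0587), without teriflunomide replicate 2 (-0.32, limma adjusted p = 0.0647) and with no filter (limma adjusted p = 0.0744). The probe set 202968_s_at read 9.37, 9.35 and 9.31 in DMSO and 8.50, 8.60 and 8.44 with teriflunomide, a change of -0.83 (SE 0.05, limma adjusted p = 0.000208). DMSO and teriflunomide arrays were widely separated there. The probe set 202970_at read 8.69, 8.70 and 8.68 in DMSO and 8.14, 8.22 and 8.28 with teriflunomide, a change of -0.48 (SE 0.05, limma adjusted p = 0.000768). On 202971_s_at the groups overlapped, with a difference of -0.27 (95% interval -0.55 to 0.01).

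DYRK3, a kinase that dissolves stress granules and other condensates, read 7.22, 7.20 and 7.27 in DMSO and 7.13, 7.19 and 7.20 with teriflunomide on probe set 210151_s_at. The groups overlapped, and the log2 fold change was -0.05 with a 95% interval of -0.15 to 0.04. Its other probe set lay at the floor on every array.

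**Figure D2:**
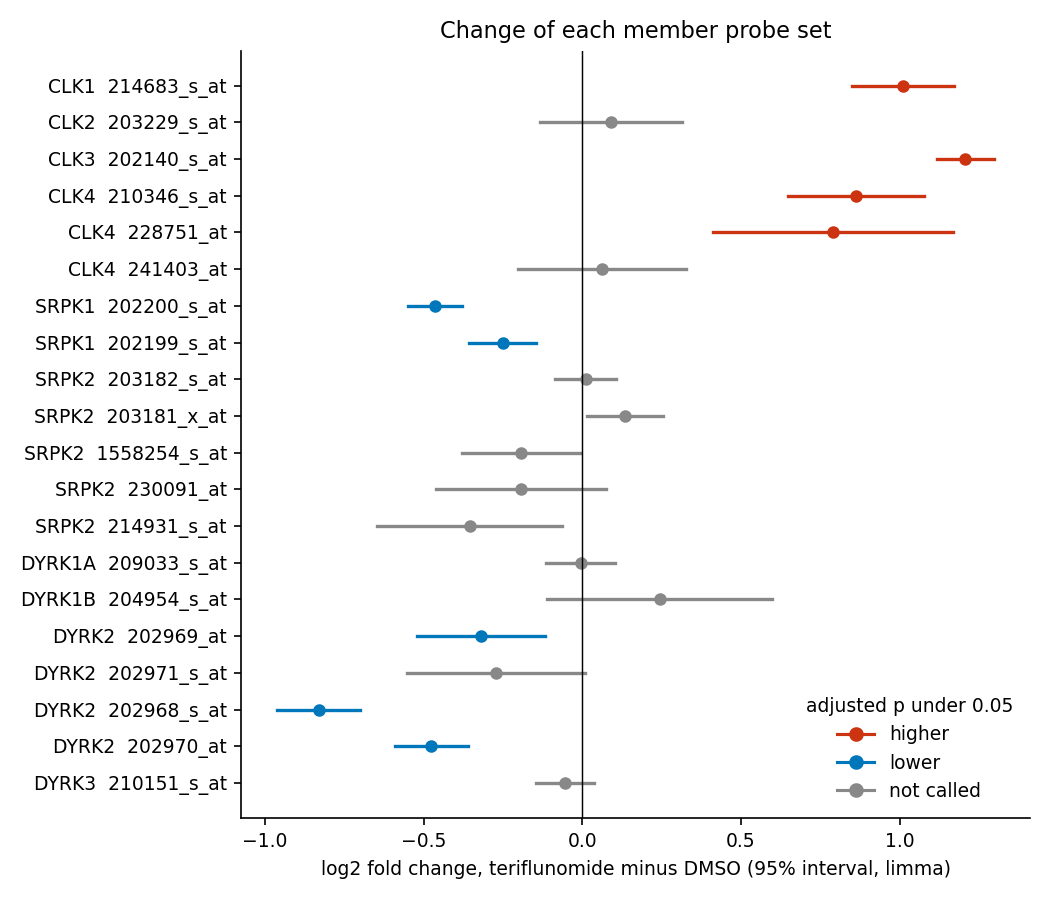
Log2 fold change, teriflunomide minus DMSO, of the 20 member probe sets that passed the filter (points) with limma's 95% interval (bars), red where called higher, blue where called lower and grey where not called. The 4 red points, of CLK1, CLK3 and CLK4, lie between 0.79 and 1.21, and the 5 blue points, of SRPK1 and DYRK2, between -0.83 and -0.25.

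Whether probe sets of a gene responded unequally was tested by taking, on each array, the value of each further probe set minus that of the brightest. Of 10 such differences among the members, 2 were called by limma, against 30.6% of the 10737 differences over all genes. The first was the dim CLK4 probe set 241403_at, which moved by -0.80 relative to 210346_s_at (SE 0.08, limma adjusted p = 0.000635). The second was DYRK2 202968_s_at, which fell further than 202969_at (difference of log2 fold changes -0.51, SE 0.11, limma adjusted p = 0.0109). The size of the DYRK2 fall therefore depended on the probe set, while the sign was the same on all 4. For SRPK2, the differences from the brightest probe set ran from -0.37 to 0.12, and none was called (adjusted p 0.0652 to 0.274 by limma). Of these 4, 2 had an unadjusted p under 0.05, which at least the 30.6% called over all genes also had.

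Paralogs were compared on their brightest probe sets by the difference of their log2 fold changes. CLK2 changed by -1.12 relative to CLK3 (limma 95% interval -1.37 to -0.86) and SRPK1 by -0.48 relative to SRPK2 (-0.66 to -0.29). DYRK2 changed by -0.26 relative to DYRK3 (-0.48 to -0.04). In each of these 3 pairs the per-array differences of the groups did not overlap. CLK1 and CLK4 differed by 0.15 (-0.09 to 0.39), an interval that includes 0 and does not show that they respond alike. DYRK1A and DYRK1B differed by -0.25 (-0.57 to 0.07), with DYRK1B barely above the floor. With values under log2 5 raised to 5, that pair differed by -0.0053 (exact permutation p = 0.9, adjusted over the 5 pairs), so its separation rests on values near background. With 3 arrays against 3, the exact permutation test cannot give a p below 0.1. It gave 0.2 for CLK1 and CLK4 and 0.1 for each of the other 4 pairs (two-sided, 0.2 and 0.125 adjusted over the 5 pairs).

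**Figure D3:**
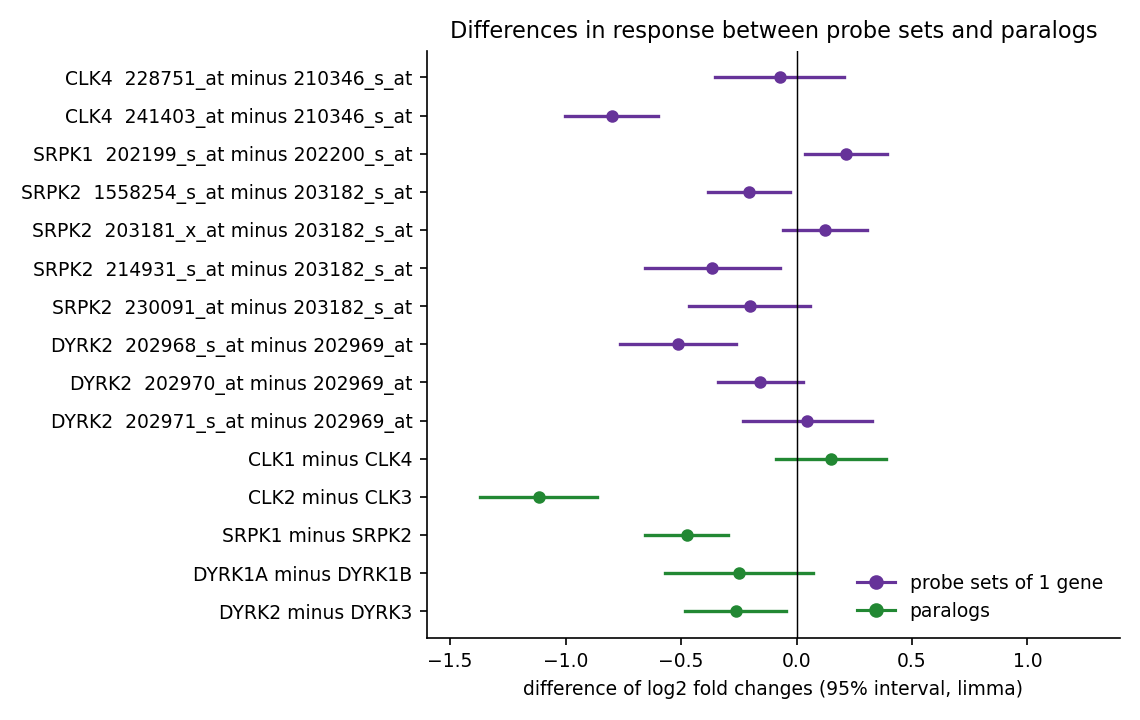
Differences of log2 fold changes (points) with limma's 95% interval (bars), for further probe sets minus the brightest of the same gene (purple) and for the 5 paralog pairs (green). CLK2 minus CLK3 lies furthest from 0, at -1.12, and CLK1 minus CLK4 spans 0.

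SR proteins and related factors, many of them substrates of the CLK and SRPK kinases, were lower in the main. Of 35 genes on this list, which also holds the transport receptor TNPO3 (-0.03, not called), 33 were tested. Of these 22 fell, 1 rose and 10 were not called. Their median change was -0.34 on the log2 scale (range -1.43 to 0.15 over the brightest probe sets). That is 69.7% called, against 58.6% of all genes, and the share called lower over all genes was 28.9%. LUC7L2, a U1 snRNP-associated factor, changed by -1.43 (SE 0.06), SRSF7 by -1.42 (SE 0.04), TRA2A, an exonic enhancer-binding regulator, by -1.35 (SE 0.07), and SRSF3, the smallest SR protein, by -1.14 (SE 0.04). LUC7L2 was lower on both of its tested probe sets and SRSF3 on all 5. TRA2A was called on 1 of 4 probe sets only, with the others at 0.05 to 0.35, and averaging them gave -0.16 (limma adjusted p = 0.309). SRSF7 was called on 2 of 3, with the third at 0.06, and changed by -0.79 as the mean. SRSF8, picked with its values in view, was not called on its brightest probe set (-0.36, limma adjusted p = 0.0853), but the 2 dimmest of its 4 probe sets stood at -3.10 and -3.17, both called lower, and it was called at -1.64 as the mean. In the other direction, SRSF12, also picked with its values in view, was at 0.03 on its brightest probe set and not called. Its other probe set was called higher at 0.76 (limma adjusted p = 0.00046), and so was the mean at 0.39. Leaving out any DMSO array made this other probe set the brighter one. The gene call then seen, at 0.72 to 0.78, is therefore from the same probe set and adds no further evidence. PNN, a nuclear speckle protein, rose by 0.15 on its brightest probe set and was not called as the mean of its probe sets (0.04).

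Counted by probe set, 65 of 114 probe sets of these factors were called lower (57%, against 25.2% of all probe sets) and 4 higher (3.51%, against 23.7%). RBM39 was the 1 gene of the list with calls in both directions. It changed by -0.17 on its brightest probe set and by 1.57 and 1.38 on 2 dimmer ones, so its direction is not settled. SRSF2, which shares its probe sets with the microRNA gene MIR636 and so was not in the gene test, was at -1.42, -0.91 and -1.02 on its 3 probe sets, each called lower. Thus CLK1, CLK3 and CLK4 stood above their DMSO level on the same arrays on which most tested SR factors stood below theirs.

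Among other CMGC kinases, 15 of 23 were tested. Of these, 2 rose, 3 fell and 10 were not called (33.3% called, against 58.6% of all genes), and the median change was -0.12. MOK, a MAP kinase-like kinase, rose by 0.62 (SE 0.09), and HIPK1, a homeodomain-interacting kinase, by 0.32 (SE 0.05) on its brighter probe set, with 0.02 on the other. CDK12, which phosphorylates RNA polymerase II during elongation, fell by 1.22 (SE 0.05), and its 5 probe sets above log2 8 were all called lower. The rest of its 8 tested probe sets were dim (mean log2 2.67 to 3.42), stood at 0 to 0.17 and were not called. CDKL3 fell by 1.50 (SE 0.07) on its brightest probe set. With its probe sets averaged the change was -0.39 and was not called (limma adjusted p = 0.0511). GSK3B, the kinase whose substrates DYRK kinases prime, changed by -0.95 (SE 0.04) on its brightest probe set, by -3.32 on another, and by 0.60 and 1.72 on the remaining 2, all called. Its probe sets thus moved in opposite directions.

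Of 33 partners and substrates of DYRK kinases, 31 were tested. Of these 9 rose, 7 fell and 15 were not called, and the median change was 0.11. The 51.6% called is below the 58.6% of all genes. NFATC1, a transcription factor exported from the nucleus after phosphorylation by DYRK1A, rose by 1.55 (SE 0.18), and by 0.72 and 0.12 on its other tested probe sets, the last not called. STAT3 rose by 1.14 (SE 0.06), with 3 of 4 probe sets called, and CCND1, encoding cyclin D1, a protein destabilised by DYRK1 kinases, rose by 0.60 (SE 0.06). FOXO1 stood at 0.55 (SE 0.18, limma adjusted p = 0.0445), a call lost when any array other than teriflunomide replicate 2 was left out (0.42 to 0.62), and also with no filter (limma adjusted p = 0.125), with values under log2 5 raised to 5 (0.0714) and with array weights (0.0584). AKT1S1, the DYRK3 substrate PRAS40, changed by -0.71 (SE 0.12), and NFATC3 by -0.64 (SE 0.03) with all 5 tested probe sets called lower. TFDP1, a DREAM subunit, fell by 0.38 (SE 0.04) on its brightest probe set and was called higher on another (0.41), and SF3B1, a U2 snRNP subunit, fell by 0.33 (SE 0.03) with all 5 probe sets called lower. Of the proteins that bind DYRK2, DCAF1 fell by 0.27 (SE 0.07) with 2 of its 5 probe sets called, and DDB1 stood at -0.08 (SE 0.05) and was not called; both were picked with their values in view. The DCAF1 call was lost with no filter (limma adjusted p = 0.0513) and without DMSO replicate 2 (0.0570), DMSO replicate 3 (0.0619), teriflunomide replicate 1 (0.0588) or teriflunomide replicate 2 (0.0504).

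**Figure D4:**
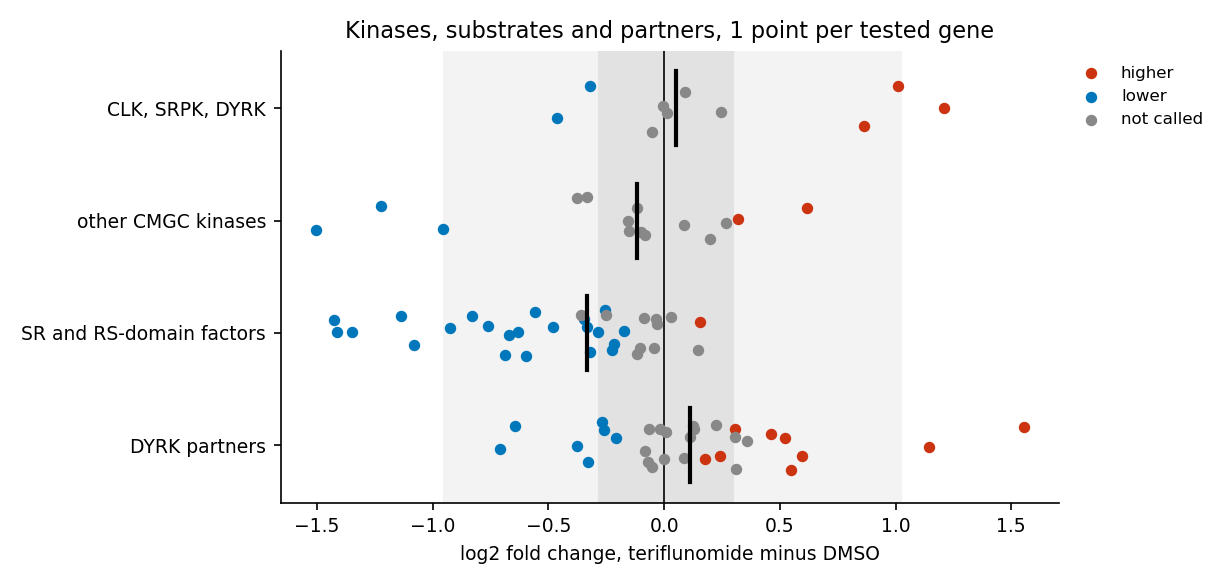
Log2 fold change, teriflunomide minus DMSO, of each tested gene (points, coloured by call) in the 10 members, other CMGC kinases, SR and RS-domain factors and DYRK partners, with the median of each list as a black bar. Over all 11998 genes, the dark grey band runs from the 25th to the 75th percentile (-0.28 to 0.30) and the light grey band from the 5th to the 95th (-0.95 to 1.02); the SR factors lie mostly to the left of 0 and CLK1, CLK3 and CLK4 far to the right.

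Several facts of the arrays bear on these values. Across probe sets, which are not independent replicates, arrays of a group correlated at 0.998 to 0.999 and arrays of different groups at 0.989 to 0.990 (Pearson's r). The ACTB 3′ minus 5′ control signal, which varies with RNA integrity, was 1.36 ± 0.03 in DMSO and 1.62 ± 0.07 with teriflunomide (log2, SD, n = 3 per group, exact two-sided permutation p = 0.1, the smallest possible), without overlap, while that of GAPDH overlapped (0.049 and 0.063, exact p = 0.4). Its part in the differences between probe sets was not tested. Of the neuroblastoma markers, PHOX2A, GATA3, GATA2, ISL1, CHGA and MYCN were above log2 10 on every array, and HAND2 and CHGB lay between 6.92 and 7.51. HAND2 read an identical 6.92 on every array but DMSO replicate 2 (7.03), and whether that is measured signal was not tested. DBH was dim, and TH and STMN2 lay at the floor. The summed signal of these markers was log2 16.04 to 16.10 in DMSO and 15.82 to 15.90 with teriflunomide. Of the 9 tested, 3 were called higher and 2 lower (55.6% called, against 58.6% of all genes). All 4 blood and 3 endothelial markers measured lay within 0.1 of the lowest value, as did 3 of 4 epithelial ones. Of 3 fibroblast and Schwann cell markers measured, DCN lay at the floor, and their summed signal, nearly all from LUM, was log2 11.30 to 11.55 in DMSO and 11.99 to 12.07 with teriflunomide; its part in the results was not tested.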

How the data were processed

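The deposited values are log2 expression values, 1 per probe set and array, which per the submitters' processing notes the authors computed with GCRMA. That method corrects background from probe sequence, brings arrays to a common distribution and summarises probes, so a shift shared by all genes would not show. Version and settings: not given in the sources used here. Between 33.9% and 34.3% of probe sets lay at the lowest value of an array, 2.18, and changes that start or end near it depend on the background model. Arrays give no read depth; 3 arrays per group limit the precision.

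Names came from the platform annotation: of 54675 probe sets, 41097 had 1 gene symbol, 1801 several and 11777 none; 41043 of the first were matched by gene identifier to a RefSeq table of GRCh38.p14, which changed 0 symbols. The 62 control probe sets were left out. To be tested, a probe set had to reach the median of its array on 3 or more of the 6 arrays (27290 did), and the one with the highest mean stood for its gene (11998 genes). Groups were compared with limma 3.58.1 in R 4.3.3 (lmFit, eBayes, no covariates, two-sided, Benjamini-Hochberg over all features of each fit). Values for member probe sets are from the probe-set fit and values for lists from the gene fit. On simulated data for 11998 genes, the fit called 60% of genes given a change of log2 0.5 and 94% of genes given log2 1, with 9 false calls. Such values depend on the share of genes given a change. Whether they hold for these arrays, where 58.6% of genes were called, was not tested.

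The members, the lists and the tests were chosen with earlier results of these data known. Named were all members, the called genes of the CMGC list, and the 4 largest rises and falls of the other 2 lists; other genes are marked as picked with their values in view or belong to a count. Alternatives were other filters, scalings and floors, other ways to choose a gene's probe set, other variance settings, a replicate block and leaving out each array.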

Additional observations from a re-analysis of the deposited data

How the results depend on the processing

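The calls of CLK1, CLK3, CLK4 and SRPK1 kept their direction and passed under all 16 alternatives; their log2 fold changes ran from 0.97 to 1.07, 1.19 to 1.23, 0.57 to 0.91 (lowest as the mean of the CLK4 probe sets, which includes a dim one) and -0.48 to -0.36. With no filter, DYRK2 was not called at gene level (limma adjusted p = 0.0506), which left 1 member called lower; 5798 probe-set differences were then called over all genes and 6 among the members, against 1535 over all genes with a filter at the 75th percentile. With values under log2 5 raised to 5, 4 member probe-set differences were called. As means of probe sets, 4 CMGC kinases and 2 SR factors were called higher. With array weights, 5 CMGC kinases were called lower. Leaving out 1 array gave 1 to 2 SR factors called higher. The count of DYRK partners called higher, 9 in the main setting, was less firm. It was 6 with no filter or without teriflunomide replicate 2, and 12 with means of probe sets or the replicate block. Directions turned for RBM39 (0.64 as the mean of its probe sets, 1.57 with plain-suffix probe sets preferred), SRPK2 (-0.12 as the mean), PNN (-0.018) and RBBP4 (0.030), the last 2 with plain-suffix probe sets preferred. NFATC1 stood at 0.12 and was not called with that choice. The causes were not tested beyond the choice of probe set itself. In the titles both groups are numbered 1 to 3, but the labels state no pairing, so the numbers were not taken to pair the arrays. Deviations of same-numbered arrays correlated at 0.13, 0.15 and -0.05. Of the 3 DMSO arrays, 2 correlated best with the teriflunomide array of their own number. With the replicate block, 3359 genes were higher and 3282 lower, and 3 members were higher and 2 lower. Dim probe sets, under about log2 5, limit DYRK1B and 1 CLK4 probe set most.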

Other observations

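CDK11A and CDK11B, near-identical CMGC kinases that work with L-type cyclins in splicing, share their probe sets and so had no place in the gene test. Of the 5 shared probe sets, 215329_s_at read 6.55 on every array and so could not be called. Limma called 0 of the 5, against 48.8% of all probe sets tested. Without adjustment, 1 had a limma p under 0.05, which at least those 48.8% also had. It was 212401_s_at, which read 9.56, 9.58 and 9.51 in DMSO and 9.87, 9.88 and 9.59 with teriflunomide (log2 fold change 0.23, SE 0.09, limma adjusted p = 0.0861). SRSF9, which shares its probe sets with GATC, was called lower by limma on both of them, at -0.16 and -0.18.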
